A study of Mus musculus with 18 samples.

Results

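Kidneys of mice given AOS directly were compared with kidneys of mice given a transplant labelled AOS, both on a high fat diet. The members were the 6 RNA sequencing libraries labelled HFD+AOS (3) and HFD+AOS-FMT (3), out of 18 in the series. All 18 libraries came from frozen kidney, taken at an age of 10 weeks from mice of the outbred ICR strain. HFD+AOS mice had a high fat diet (HFD) and AOS at 10 mg/kg. HFD+AOS-FMT mice had the same diet and a transplant of faecal microbes (FMT), in which gut bacteria of a donor are passed to a recipient, labelled with AOS 10 mg/kg. Whether those recipients were also dosed with AOS is not in the labels, which do not spell out AOS either. The 4 other groups, with 3 libraries each, were HFD with a control transplant (HFD+control-FMT), HFD alone, AOS at 10 mg/kg with no diet named, and control. They serve here to place the levels and to estimate the spread. No label states that each library is a different animal, so the p-values rest on a spread between samples that may be technical only.

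The proximal tubule, which makes up most of the kidney cortex, takes back glucose, amino acids and phosphate, secretes organic anions through transporters of the SLC22 family, and lives largely on fatty acid oxidation. The thick ascending limb further along reabsorbs salt and secretes uromodulin. Both routes of treatment were thus compared in a tissue whose RNA comes largely from the proximal tubule, and the deposited values are a normalized signal per gene without a stated unit.

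No gene separated direct AOS from the AOS transplant at a limma adjusted p under 0.05. Of 19518 genes, 12031 had a signal of at least 1 in 3 or more of the 18 libraries and were tested, and 0 passed (0% of genes tested). At an unadjusted p under 0.05, 729 genes (6.06%) were called, where chance gives an average of 602, with 200 higher (1.66%) and 529 lower (4.4%) in HFD+AOS than in HFD+AOS-FMT. All differences are HFD+AOS minus HFD+AOS-FMT in log2(signal + 1), which understates the change of genes with a low signal. The median difference over all genes was -0.03, and 68 genes differed by more than 1, of which 3 were on the higher and 65 on the lower side. Of the 12031 genes, 4810 had positive and 7215 negative differences, so counts of signs in a list are to be set against these. The 95% confidence interval of a gene reached a median of 0.25 to either side of its difference, and from 0.14 to 0.67 between the 5th and 95th percentiles of genes. Differences smaller than that were not detectable for the typical gene. These intervals are not adjusted for the number of genes, so passing the adjusted threshold took a larger difference still.

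**Figure D1:**
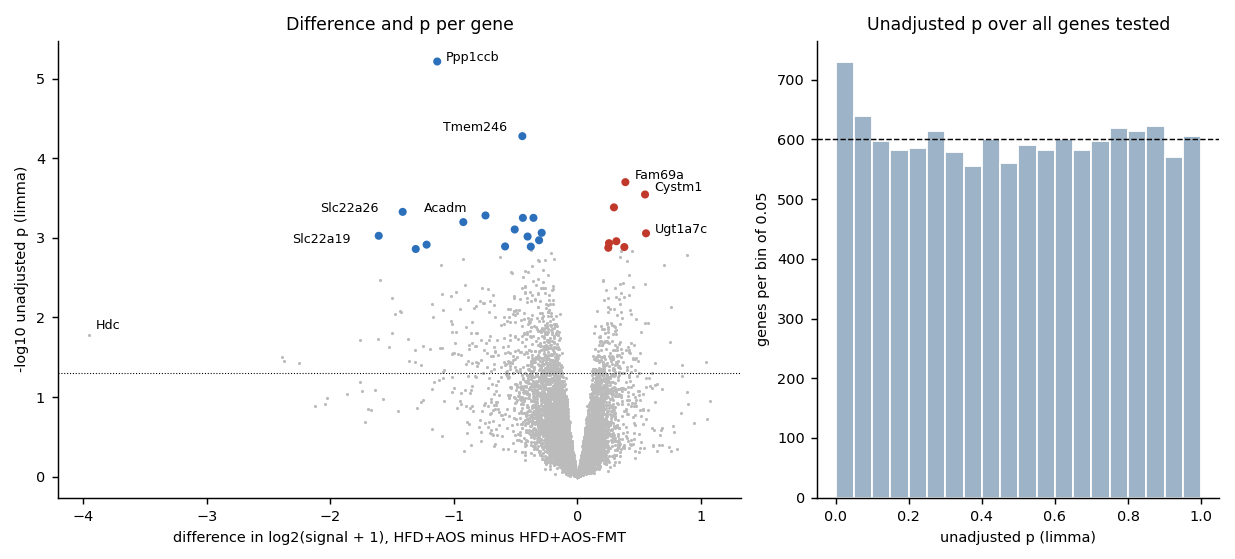
Left, each point is 1 of 12031 genes, with the difference in log2(signal + 1), HFD+AOS minus HFD+AOS-FMT, on the horizontal axis and -log10 of the unadjusted limma p on the vertical axis; the 24 genes with the smallest p are coloured, red where the difference is positive and blue where it is negative and the dotted line marks the unadjusted threshold of 0.05. Right, the number of genes in each bin of p, where the dashed line is the number expected by chance, shows a small excess in the lowest bin (729 genes); Hdc stands alone at the far left.

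The split of these unadjusted calls between directions depended on the scaling and on single libraries. Genes higher in HFD+AOS made up 27.4% of the 729 calls, against 56.9% of 865 calls after quantile normalization and 47.5% of 838 after upper quartile scaling. The share was 44.7% without HFD+AOS-FMT replicate 2. With HFD+AOS-FMT replicate 1 left out instead, it was 18.6%. HFD+AOS-FMT replicate 2 had the highest signal of the 6 libraries in 35.2% of all genes tested. Leaving out HFD+AOS replicate 1 left 419 unadjusted calls, 0.806% of genes tested on the higher and 2.68% on the lower side. The lowest library of a gene called lower, and the highest of a gene called higher, falls in HFD+AOS almost by selection. The 3 libraries of that arm are therefore set side by side, in the order of replicates 1 to 3. They were the lowest of the 6 in 266, 140 and 122 of the 529 genes on the lower side. On the higher side they were the highest of the 6 in 102, 45 and 53 of the 200 genes. Over all genes tested they were the lowest in 16.9%, 19.9% and 19.4%, and the highest in 19.0%, 10.2% and 10.1%.

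Across genes, correlations were 0.988 to 0.991 within HFD+AOS, 0.990 to 0.993 within HFD+AOS-FMT and 0.982 to 0.991 between them. Kap, a proximal tubule protein that depends on androgen in mice, took 17.2%, 21.02% and 21.5% of the summed signal in HFD+AOS and 22.9%, 18.2% and 20.3% in HFD+AOS-FMT. Kidney markers were present, with all 24 listed proximal tubule genes, all 19 loop and distal tubule genes and 13 of 14 principal cell genes passing the filter. Control replicate 3 stood apart, with 2.48% for Kap and correlations of 0.948 to 0.963 with the other libraries. It enters here through the estimate of the spread, the filter and the control mean against which both arms are placed. Without it 1370 genes had an unadjusted p under 0.05, with 0 past the adjusted threshold. The number of reads is unknown, and the relative depth estimated from the steps between low values ran from 0.961 to 1.00 over the 6 libraries.

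Of the 24 genes with the smallest p, 16 had a lower and 8 a higher signal in HFD+AOS, and in all 24 the groups did not overlap. That held for 14.4% of all genes tested, 4.63% on the higher and 9.77% on the lower side. The 24 were picked for a small p in this same comparison. Their lack of overlap, and in part the places of their means given below, follow from that choice. Their limma adjusted p was 0.0735 for Ppp1ccb, 0.318 for Tmem246 and 0.64 for the others, so none of them passed. The HFD+AOS mean lay below the means of all 4 other groups in 16 of the 24, above them in 6 and among them in 2. The HFD+AOS-FMT mean lay below them in 4, above them in 10 and among them in 10. Over all genes tested, 46.1% had the HFD+AOS mean and 41.2% the HFD+AOS-FMT mean below or above all 4 other groups. With control replicate 3 left out of the control mean these shares were 54.8% and 54.6%. In the 24 genes the HFD+AOS mean then lay below in 16 and above in 5, and the HFD+AOS-FMT mean below in 4 and above in 11.

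Ppp1ccb, annotated as a transcribed processed pseudogene on chromosome 7 (119739926 to 119742226, plus strand, GRCm38), is a copy of the gene of a protein phosphatase catalytic subunit, Ppp1cc. Its signal was 1.77, 1.87 and 1.84 in HFD+AOS, against 4.64, 5.51 and 5.51 in HFD+AOS-FMT. The difference of -1.13 (95% interval -1.49 to -0.78, limma adjusted p = 0.0735) was the one with the smallest p of all genes tested. In the 4 other groups the mean was 2.73 to 4, so the HFD+AOS libraries lay under it and the HFD+AOS-FMT libraries over it. When the fit held the 6 libraries alone, its limma adjusted p was 0.0193. The parent gene Ppp1cc, chosen after its values were seen, had 72.34, 75.2 and 66.67 against 70.34, 75.17 and 70.63, a difference of -0.01. How reads shared by the copy and its parent were assigned is not given in the sources used here, so the level of Ppp1ccb is uncertain.

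Acadm, the medium-chain acyl-CoA dehydrogenase of mitochondrial fatty acid oxidation (chromosome 3, 153922357 to 153944632, minus strand), had a signal of 325, 458.19 and 429.13 in HFD+AOS. In HFD+AOS-FMT it was 691.88, 727.82 and 597.7, a difference of -0.74 (95% interval -1.10 to -0.38). HFD+AOS replicate 1 was again the lowest, and the means of the 4 other groups, 511 to 597, lay between both arms. Among the other genes of the 24, Cd55, which protects cells from complement, had 8.56, 10.37 and 9.22 in HFD+AOS against 14.52, 13.06 and 13.62 in HFD+AOS-FMT. Its HFD+AOS mean lay below and its HFD+AOS-FMT mean above those of every other group.

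Ccl21a, a chemokine that draws lymphocytes and has near-identical copies in the mouse genome that make its signal uncertain, had 1.35, 2.47 and 5.87 in HFD+AOS against 5.95, 9.36 and 8.85 in HFD+AOS-FMT. The remaining genes with negative differences included Rrn3, an initiation factor of ribosomal RNA transcription (-0.36), Socs5, a suppressor of cytokine signalling (-0.44), Tmem246, an enzyme that modifies lipid anchors of membrane proteins (-0.45), Ppp1r10, a nuclear partner of protein phosphatase 1 (-0.59), and the RNA-binding protein gene Ybx3 (-0.29). Bicdl1, Tmem109 and Zscan30 had -0.40, -0.31 and -0.38.

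On the positive side, Ugt1a7c, a glucuronosyltransferase whose last exons are shared with its neighbours in the Ugt1a cluster, had 160.1, 165.0 and 159.8 in HFD+AOS. In HFD+AOS-FMT it had 91.73, 122.3 and 117.3, a difference of 0.56 (95% interval 0.27 to 0.84). Every other group had a mean of 94.3 to 111, so the HFD+AOS libraries stood above all of them while HFD+AOS-FMT did not. Cystm1 showed the opposite arrangement, with 53.91, 54.69 and 77.04 in HFD+AOS and 41.9, 41.85 and 40.53 in HFD+AOS-FMT, where the other groups averaged 59.0 to 60.6. Cxxc5, a zinc finger regulator of Wnt signalling, had a difference of 0.30, and Fam69a, Sall2, Lrrc19, Hmgn5 and D17H6S53E had 0.39, 0.32, 0.26, 0.25 and 0.38.

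**Figure D2:**
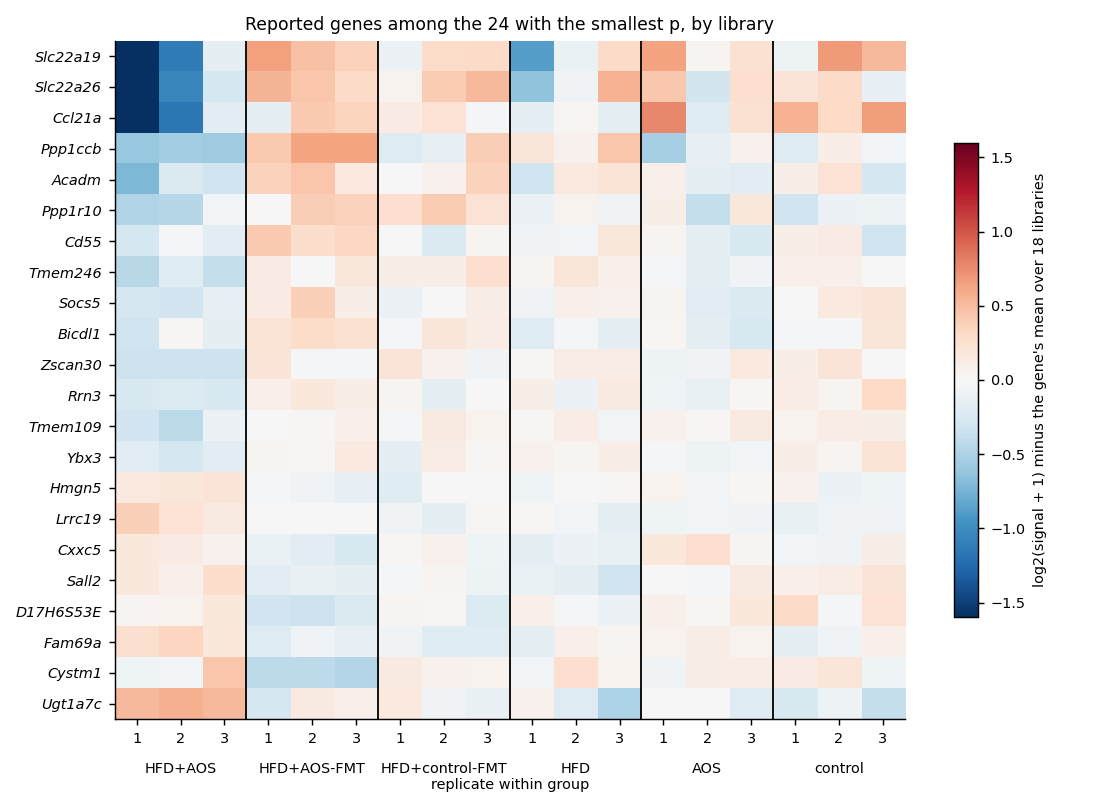
Each row is a reported gene among the 24 with the smallest p and each column 1 of 18 libraries, in their groups; colour is log2(signal + 1) minus the gene's mean over the 18 libraries, and values beyond the ends of the scale take the end colours. The 3 HFD+AOS columns are blue or near white in the upper rows, down to Ybx3, and the HFD+AOS-FMT columns mostly red there, with HFD+AOS replicate 1 darkest for Slc22a19, Slc22a26 and Ccl21a.

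Among transporters of organic ions, 4 SLC22 genes had much lower signals in HFD+AOS, although none passed. Of 19 tested genes of organic ion transport, 3 were lower and 1 higher at an unadjusted p under 0.05 (4.4% and 1.66% of all genes), and the median difference was 0.04 (all genes -0.03). Slc22a19, an organic anion transporter of the rodent kidney (chromosome 19, 7673061 to 7711310, minus strand), had 7.8, 16.17 and 32.6 in HFD+AOS. In HFD+AOS-FMT it had 57.7, 50.27 and 46.82, a difference of -1.61 (95% interval -2.44 to -0.78). The groups did not overlap, and HFD+AOS replicate 1 was lowest of all 18 libraries, whose other groups averaged 32.5 to 48.2. Slc22a26, nearby on the same chromosome, had 1.13, 2.18 and 4.4 against 8.55, 7.92 and 7.13 (difference -1.41), and HFD+AOS replicate 1 was again the lowest.

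Slc22a13, a transporter of urate and nicotinate, had 3.76, 16.28 and 21.98 in HFD+AOS against 31.65, 34.02 and 31.28 in HFD+AOS-FMT (difference -1.43, 95% interval -2.44 to -0.42). Slc22a7, another organic anion transporter, had 27.9, 74.8 and 77.48 against 162.29, 106.19 and 170.27 (difference -1.37). The order of the 3 HFD+AOS libraries was the same in all 4 genes, with replicate 1 lowest and replicate 3 highest. HFD replicate 1 was the lowest library of its group in each of them, with 19.14 for Slc22a19 and 11.48 for Slc22a13. The main organic anion transporters of the basolateral membrane did not share this, with Slc22a6 at a difference of 0.14 and Slc22a8 at 0.42, both overlapping between groups and chosen after their values were seen. Abcg2, an apical exporter of urate, had 266, 251.8 and 230.2 in HFD+AOS against 238.6, 220.4 and 198.1 in HFD+AOS-FMT (difference 0.19).

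Cyp7b1, an oxysterol hydroxylase, had 8.63, 40.37 and 63.54 in HFD+AOS against 90.6, 102.72 and 104.36 in HFD+AOS-FMT, a difference of -1.76 (95% interval -3.19 to -0.33). Akr1c18, a hydroxysteroid dehydrogenase that inactivates progesterone, had 1.62, 17.92 and 16.05 against 19.67, 31.41 and 34.99 (difference -1.61). HFD+AOS replicate 1 was the lowest of the 18 libraries for both. Chosen after their values were seen, Mettl7a2 (difference -1.50), Mettl7a3 (-1.60), Bcat1, the cytosolic enzyme that starts breakdown of branched-chain amino acids (-1.43), and Serpina1f (-1.52) had the same library lowest of 6, with 3.32, 0.28, 0.29 and 0.88. The groups did not overlap in these 4, as in 9.77% of all genes on the lower side. With genes chosen by their values, neither this nor the low replicate 1 is a separate result. Slc7a13, a cystine and acidic amino acid carrier of the late proximal tubule, had 464.3, 467.6 and 534.8 against 511.1, 540.4 and 505.4, a difference of -0.09, and of 15 androgen-responsive genes 1 (Akr1c18) was lower at an unadjusted p under 0.05 (4.4% of all genes). Without HFD+AOS replicate 1, 2 of the 19 organic ion transport genes were lower and 0 higher at an unadjusted p under 0.05. Over all genes that fit called 2.68% lower and 0.806% higher.

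**Figure D3:**
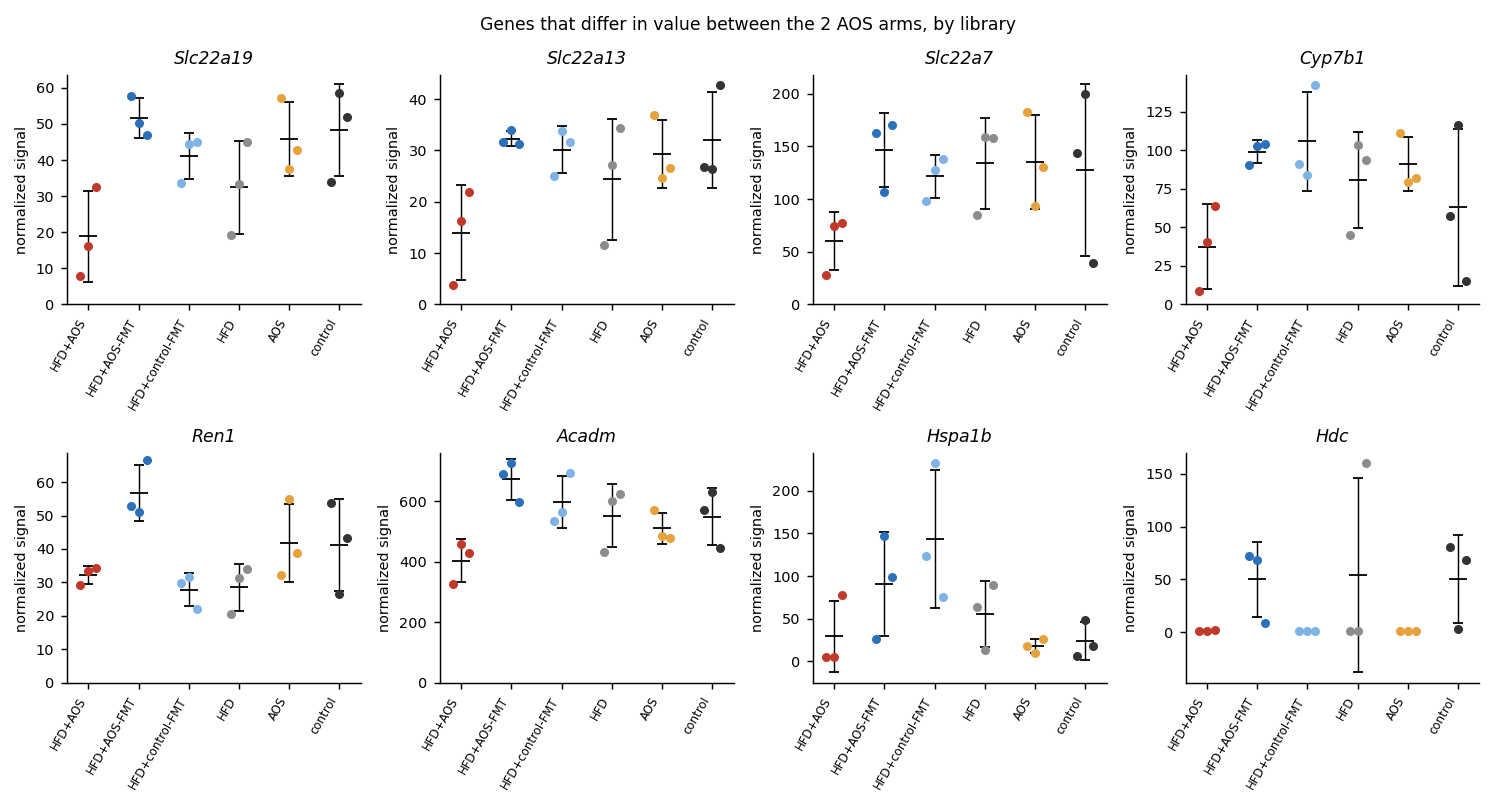
Normalized signal of 8 genes in each of 18 libraries (points, replicates 1 to 3 from left to right) with the mean and SD of 3 libraries per group (horizontal and vertical bars); the vertical axes are linear, each with its own range. The HFD+AOS points lie under all 3 HFD+AOS-FMT points in every panel but Hspa1b, and HFD+AOS replicate 1 is the lowest of its group for 6 of the 8 genes, Hspa1b and Hdc excepted.

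Proximal tubule genes leaned the other way. Of 24 tested, 6 were higher and 1 lower at an unadjusted p under 0.05 (1.66% and 4.4% of all genes). Differences were positive in 18 (4810 of 12031 over all genes), with a median of 0.15. Slc4a4, the basolateral bicarbonate exit carrier, had 148.7, 135.8 and 114.8 in HFD+AOS against 102.6, 114.9 and 102.5 in HFD+AOS-FMT (difference 0.31). Slc5a2, the glucose transporter SGLT2, had 272.4, 223.9 and 227.9 against 203.8, 201.9 and 204.2 (0.24), and Slc7a8, a basolateral neutral amino acid exchanger, 62.2, 52.62 and 60.82 against 42.95, 49.92 and 44.17 (0.35). Slc5a2 and Slc7a8 did not overlap between groups, and HFD+AOS replicate 1 was the highest of the 6 for all 3 genes. Aqp1, the water channel, went the other way with 256.1, 240.7 and 260.9 against 275.1, 319.8 and 300.4 (-0.24). Without HFD+AOS replicate 1, 1 proximal tubule gene was higher and 1 lower at the unadjusted threshold (0.806% and 2.68% of all genes in that fit). Of the 24, 17 still had positive differences there, with a median of 0.11 (all genes -0.04).

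Folh1, a brush border peptidase chosen after its values were seen, had 36.36, 23.87 and 30.42 in HFD+AOS against 19.98, 19.16 and 13.37 in HFD+AOS-FMT (difference 0.75, 95% interval 0.24 to 1.27). Gpx3, the secreted glutathione peroxidase made by the proximal tubule and among the largest signals of the kidney, had 31904.5, 26512.3 and 29012.7 against 26832.2, 20743.8 and 22502.3 (0.32). Its groups overlapped. The difference was 0 after quantile normalization, which gives genes of equal rank equal values, so that setting does not test this gene. Amino acid breakdown enzymes summed to 3245 to 3312 in HFD+AOS and 3047 to 3132 in HFD+AOS-FMT, with 13 of 19 differences positive and 1 gene (Prodh, which degrades proline, difference 0.18) higher at an unadjusted p under 0.05 (1.66% of all genes). Leaving out HFD+AOS replicate 1 left 0 of the 19 called (0.806% of all genes higher and 2.68% lower in that fit). There 15 of the 19 differences were positive, with a median of 0.095, against 0.03 with all libraries.

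Genes of the loop of Henle and the distal nephron were split, and none passed. Of 19 tested, 4 were lower and 1 higher at an unadjusted p under 0.05 (4.4% and 1.66% of all genes), 12 had negative differences, and the median was -0.08 (all genes -0.03). After either other scaling 10 were negative, with medians of -0.03 after quantile normalization and -0.05 after upper quartile scaling. Umod, which encodes uromodulin (chromosome 7, 119462711 to 119479282, minus strand), had 440.18, 619.4 and 648.02 in HFD+AOS against 772.01, 1220.49 and 932.36 in HFD+AOS-FMT (difference -0.77, 95% interval -1.26 to -0.28). Slc12a1, the salt cotransporter blocked by furosemide, had 58.33, 76.17 and 93.16 against 100.8, 226.1 and 131.4 (-0.94). The highest of the 6 values was HFD+AOS-FMT replicate 2 in both, and the lowest HFD+AOS replicate 1. Ptger3, a prostaglandin receptor of the thick limb, had 5.86, 8.13 and 12 against 12.32, 23.74 and 13.75 (-0.86).

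Ckb, the brain-type creatine kinase, chosen after its values were seen, had a difference of -1.10, and Fxyd4, a sodium pump regulator of the collecting duct, -0.78. The groups did not overlap in either, as in 9.77% of all genes on the lower side. Klk1, the tissue kallikrein of the connecting tubule, was on the other side with 1523.73, 1168.88 and 1340.23 in HFD+AOS against 1066.61, 1092.5 and 1138.17 in HFD+AOS-FMT (0.28). Without HFD+AOS replicate 1, 1 of the 19 loop and distal genes was lower at the unadjusted threshold and 0 were higher. Over all genes that fit called 2.68% lower and 0.806% higher. Of the 19 differences 14 were negative there, with a median of -0.15 (all genes -0.04). In whole kidney, fewer cells of a type and less RNA per cell cannot be told apart.

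The list of cytosolic heat shock genes had signals on the lower side in HFD+AOS, with 2 of 18 on the other side under 1 of 2 other scalings. Heat shock chaperones fold damaged proteins and are switched on by the factor Hsf1 when proteins unfold. The list also holds Hsf1 itself (difference -0.17) and the mitochondrial chaperones Hspd1 (-0.02) and Hspe1 (-0.04). All 18 tested genes had negative differences (7215 of 12031 over all genes), with a median of -0.32 (all genes -0.03). This was so for 18 of 18 after quantile normalization, and for 16 of 18 after upper quartile scaling and again without HFD+AOS replicate 1. Of the 18, 5 were lower at an unadjusted p under 0.05 (4.4% of all genes). After either other scaling 4 were, where quantile normalization called 3.1% and upper quartile scaling 3.66% of all genes lower. Without HFD+AOS replicate 1, 2 of the 18 were lower (2.68% of all genes in that fit). In 9 the groups did not overlap, on the lower side (9.77% of all genes). Their summed signal was 3017 to 3451 in HFD+AOS and 3572 to 4259 in HFD+AOS-FMT, and 2483 to 4865 in the 12 other libraries. None passed, and the genes of a list move together, so their number is not a number of independent results.

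Hspa1b and Hspa1a, near-identical neighbours that encode the inducible heat shock chaperone, had the largest differences of the list. Hspa1b had 5.32, 4.66 and 77.83 in HFD+AOS against 25.74, 146.68 and 98.79 in HFD+AOS-FMT, a difference of -2.38 (95% interval -4.57 to -0.18). Hspa1a had 1.66, 1.61 and 30.34 against 8.95, 57.26 and 39.57 (-2.25). The groups overlapped in both, because HFD+AOS replicate 3 stood with the transplant libraries and HFD+AOS-FMT replicate 1 below it. Reads of these copies cannot be assigned with certainty, so they count as 1 observation rather than 2.

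Hspb1, a small chaperone, had 14.02, 10.13 and 16.97 in HFD+AOS against 19.66, 41.76 and 33.46 in HFD+AOS-FMT (difference -1.11, 95% interval -2.06 to -0.17). Bag3, a partner of the inducible chaperone, had 11.81, 12.77 and 14.93 against 15.05, 23.59 and 23.42 (-0.59), and Hsph1, a nucleotide exchange factor for it, 32.54, 30.77 and 40.98 against 44.07, 66.45 and 58.39 (-0.67). In all 3 the groups did not overlap and HFD+AOS-FMT replicate 1 was the lowest of its group. Their HFD+AOS means lay below those of the 4 other groups, and their HFD+AOS-FMT means within them. Cryab, another small chaperone, chosen after its values were seen, had 14.92, 21.03 and 42.25 against 36.11, 107.67 and 35.22 (-1.09), and its groups overlapped.

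The promoters of the 5 genes of this list at an unadjusted p under 0.05 are shown because the letters of the factor's binding element can be read in them, with that of Dnajb1, a partner of the inducible chaperone with a difference of -0.59, as one without a match. Capitals mark every match to GAANNTTC or TTCNNGAA, both of which read the same on the other strand. The sequences are RefSeq promoters of GRCm38.p6, 250 bases before to 50 after the start, 5′ to 3′ on the gene's strand, for Hspa1a (chr17:34972107-34972406, minus), Hspa1b (chr17:34959189-34959488, minus), Hspb1 (chr5:135887669-135887968, plus), Hsph1 (chr5:149636287-149636586, minus), Bag3 (chr7:128523333-128523632, plus) and Dnajb1 (chr8:83607925-83608224, plus).
Hspa1a: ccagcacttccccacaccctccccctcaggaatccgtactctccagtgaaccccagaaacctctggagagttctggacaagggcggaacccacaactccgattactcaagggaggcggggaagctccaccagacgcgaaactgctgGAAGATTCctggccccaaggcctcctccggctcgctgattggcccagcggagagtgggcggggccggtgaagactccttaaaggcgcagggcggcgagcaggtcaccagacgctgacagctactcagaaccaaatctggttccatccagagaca
Hspa1b: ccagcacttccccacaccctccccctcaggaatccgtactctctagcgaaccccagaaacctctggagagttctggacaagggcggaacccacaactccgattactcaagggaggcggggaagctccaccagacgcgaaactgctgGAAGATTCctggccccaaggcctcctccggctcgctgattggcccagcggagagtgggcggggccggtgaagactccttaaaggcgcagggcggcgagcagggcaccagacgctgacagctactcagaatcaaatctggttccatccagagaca
Hspb1: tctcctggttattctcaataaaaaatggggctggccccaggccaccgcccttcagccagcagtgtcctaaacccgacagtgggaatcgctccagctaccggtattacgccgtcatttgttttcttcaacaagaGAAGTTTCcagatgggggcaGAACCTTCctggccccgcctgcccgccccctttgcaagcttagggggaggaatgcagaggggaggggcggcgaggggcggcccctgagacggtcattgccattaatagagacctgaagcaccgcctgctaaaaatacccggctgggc
Hsph1: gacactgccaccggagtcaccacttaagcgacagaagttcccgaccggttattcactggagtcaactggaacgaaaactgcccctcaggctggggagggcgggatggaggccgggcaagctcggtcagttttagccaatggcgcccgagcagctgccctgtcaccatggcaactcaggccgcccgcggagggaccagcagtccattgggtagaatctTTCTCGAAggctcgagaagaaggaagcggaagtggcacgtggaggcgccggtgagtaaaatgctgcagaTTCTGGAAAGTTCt
Bag3: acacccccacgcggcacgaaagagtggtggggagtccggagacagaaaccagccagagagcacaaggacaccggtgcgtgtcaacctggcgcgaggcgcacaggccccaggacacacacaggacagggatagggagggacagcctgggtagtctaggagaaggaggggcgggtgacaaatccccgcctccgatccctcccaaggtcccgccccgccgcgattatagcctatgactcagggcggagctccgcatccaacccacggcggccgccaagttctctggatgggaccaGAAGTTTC
Dnajb1: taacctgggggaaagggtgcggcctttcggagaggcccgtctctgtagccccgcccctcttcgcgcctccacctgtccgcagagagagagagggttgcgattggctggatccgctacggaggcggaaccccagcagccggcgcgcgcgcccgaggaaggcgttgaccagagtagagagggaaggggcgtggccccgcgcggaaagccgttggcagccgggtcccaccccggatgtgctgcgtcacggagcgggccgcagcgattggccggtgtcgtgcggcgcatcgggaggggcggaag
The promoters of Hspa1a and Hspa1b differ at 4 of 300 bases and share their 1 match, Hspb1 has 2 matches, Hsph1 has 3, of which 2 overlap, and Bag3 has 1. Dnajb1 has 0 matches in both of its promoters in the table. Of the 18 genes, 13 matched the table by symbol, of which 10 hold a match in at least 1 promoter and 3 (Dnajb1, Ahsa1 and Stip1) in none. By promoter, 11 of 18 hold one, a count that takes some stretches more than once. The 2 Hsph1 windows overlap, and a window of Hspe1 and one of Hspd1 are opposite strands of nearly the same stretch. It is therefore not a number of separate sequences to set against all promoters. Either motif occurs in 15.06% of 32851 promoters of the same length (GAANNTTC in 7.86%, TTCNNGAA in 8.52%). A match describes letters in this window and shows no binding.

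Other stress genes had scattered values. Atf4, the factor that drives the amino acid response, had 55, 55.29 and 67.62 in HFD+AOS against 74.53, 85.6 and 94.62 in HFD+AOS-FMT (difference -0.51). It was the only one of 21 tested endoplasmic reticulum stress genes called at an unadjusted p under 0.05 (6.06% of all genes). Hmox1, which breaks down haem under oxidative stress, had 19.17, 21.13 and 20.67 against 27.87, 26.11 and 28.82 (-0.42, 95% interval -0.70 to -0.15). Both arms lay under the other groups, whose Hmox1 means were 30.6 to 50.4. Of 22 antioxidant genes, 3 were lower and 1 higher at the unadjusted threshold (4.4% and 1.66% of all genes), among them Gstm1, a glutathione transferase (-0.60). Leaving out HFD+AOS replicate 1 left 1 of the 22 lower and 0 higher (2.68% and 0.806% of all genes in that fit). Alas1, the first enzyme of haem synthesis, had 46.48, 42.29 and 45.68 against 53.74, 68.2 and 65.67 (-0.47).

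In lipid metabolism, Acadm was joined by Acadl, the long-chain dehydrogenase, with 139.9, 140.3 and 154.8 in HFD+AOS against 164, 183.2 and 166.1 in HFD+AOS-FMT (difference -0.24). Ehhadh, a bifunctional enzyme of peroxisomal oxidation, had 206.7, 203.7 and 208 against 263.5, 243.8 and 258.9 (-0.31). Neither gene overlapped between groups. These 3 were the genes called at an unadjusted p under 0.05 among 21 of fatty acid oxidation and PPAR signalling, all lower (4.4% of all genes), with a median of -0.09 (all genes -0.03). After upper quartile scaling 2 of the 21 were lower (3.66% of all genes under that scaling). The list's summed signal was 3378 to 3552 in HFD+AOS and 3933 to 4076 in HFD+AOS-FMT.

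Of 23 cholesterol genes, 3 were lower at an unadjusted p under 0.05, Cyp51 and Abca1 among them, and 0 were higher (4.4% and 1.66% of all genes), with a median of -0.10 (all genes -0.03). Leaving out HFD+AOS replicate 1 left 1 of the 23 lower (2.68% of all genes in that fit). Cyp51, a demethylase of sterol synthesis, had 73.47, 87.29 and 96.81 in HFD+AOS against 120.1, 102 and 126.3 in HFD+AOS-FMT (difference -0.43), and Abca1, which exports cholesterol, 3.09, 3.67 and 2.76 against 4.38, 4.73 and 5.07 (-0.46). The differences of Hmgcs1 and Fdps, enzymes of the same pathway chosen after their values were seen, were 0.00 in both. In fatty acid synthesis 2 of 17 genes were lower and 1 higher at the unadjusted threshold (4.4% and 1.66% of all genes). Without HFD+AOS replicate 1, 0 of the 17 genes of fatty acid synthesis were lower and 0 higher (2.68% and 0.806% of all genes). Srebf1, the factor that drives it, had 8.69, 9.88 and 10.34 against 11.04, 12.87 and 13.43 (-0.34), and Gpam, which starts triglyceride assembly, 28.74, 28.22 and 25.11 against 24.17, 22.14 and 19.44 (0.31). The groups did not overlap in Cyp51, Abca1, Srebf1 or Gpam.

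**Figure D4:**
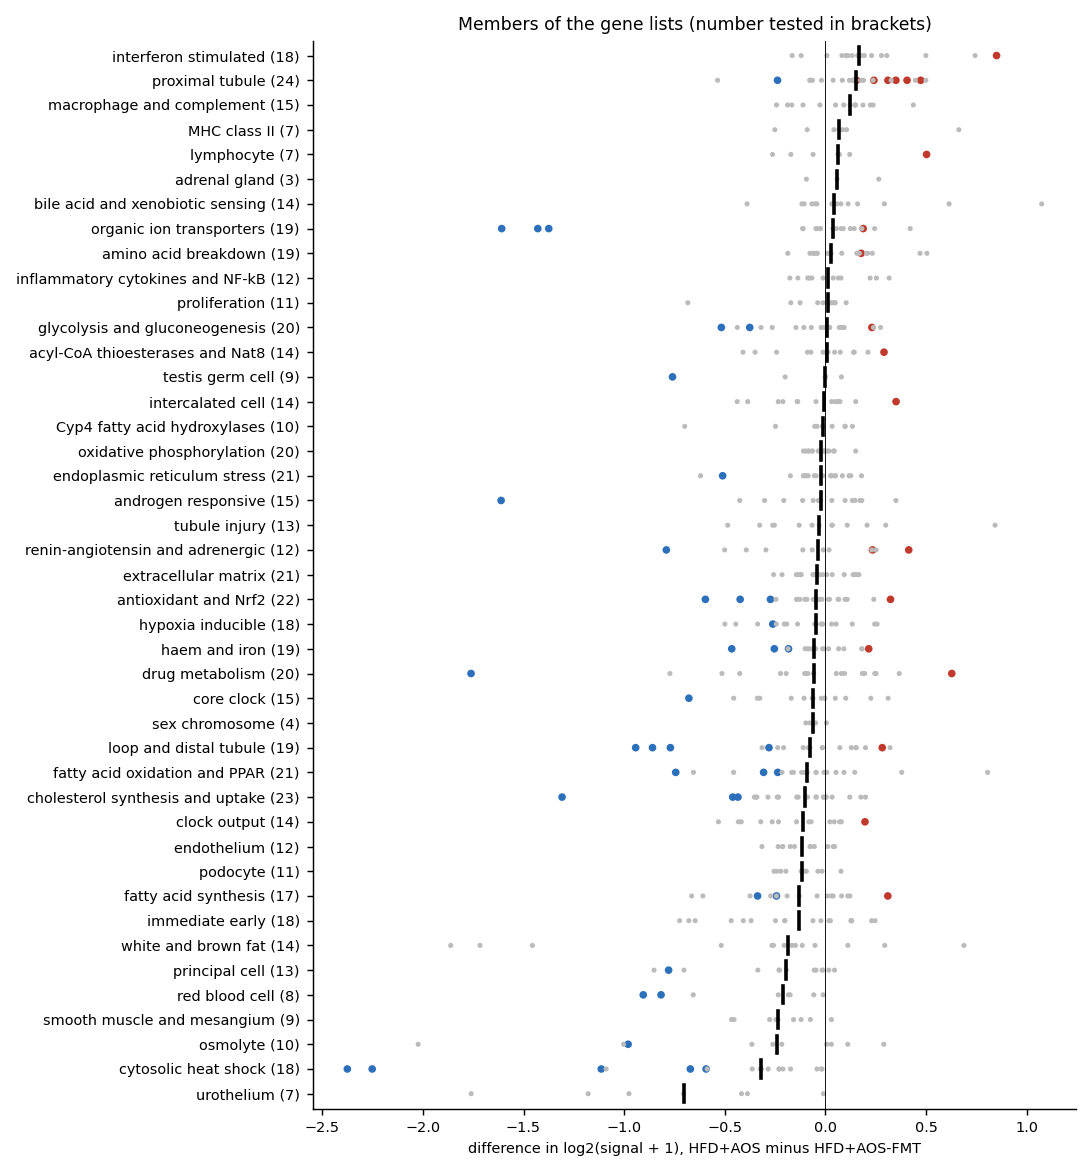
Each row is a gene list with at least 3 tested genes, with their number in brackets; points are its genes, placed by the difference in log2(signal + 1), HFD+AOS minus HFD+AOS-FMT, coloured red or blue where the unadjusted p is under 0.05 and grey otherwise, and the black bar is the list's median. Medians run from -0.70 for urothelium to 0.17 for interferon stimulated genes, and cytosolic heat shock lies wholly at or under 0.

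Renin, released by juxtaglomerular cells, starts the angiotensin cascade. Ren1 (chromosome 1, 133350510 to 133360325, plus strand) had 29.17, 33.31 and 34.36 in HFD+AOS against 52.88, 51.11 and 66.45 in HFD+AOS-FMT. The difference was -0.79 (95% interval -1.32 to -0.26, limma adjusted p = 0.71), the groups did not overlap, and the other groups averaged 27.8 to 41.9, so HFD+AOS lay among them and HFD+AOS-FMT above. Agtr1a, the angiotensin receptor, had 28.79, 24.47 and 22.22 against 21.04, 21.83 and 20.53 (0.23), and Ddc, the enzyme that makes dopamine, 24.52, 23.32 and 21.85 against 21.22, 18.94 and 12.53 (0.41). Both arms were under every other group's mean for Ddc, 33.0 to 39.6.

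The means of clock genes placed both arms together and away from the means of the other groups. The clock is a loop in which Arntl and its partners switch on the Per and Cry repressors and output factors such as Dbp, so levels follow the time of day. Of 15 core clock genes 1 was lower (Per2) and of 14 output genes 1 was higher (Klf9) at an unadjusted p under 0.05 (4.4% and 1.66% of all genes). Arntl had 2.41, 1.84 and 1.48 in HFD+AOS against 1.3, 1.86 and 1.96 in HFD+AOS-FMT, a difference of 0.10 (95% interval -0.74 to 0.94), while the other groups averaged 6.53 to 9.85. Dbp had 69.73, 72.26 and 92.87 against 97.78, 68.39 and 63.79, a difference of 0.04 (95% interval -1.84 to 1.93), where the other groups averaged 5.60 to 33.4, the last being control. The intervals are wide, and they do not show that the arms were alike.

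In 22 of these 29 genes both arms' means lay on the same side of the means of all 4 other groups, above in 17 and below in 5, and in 0 they lay on opposite sides. Over all genes tested both arms lay on the same side in 23.5%. With control replicate 3 left out of the control mean, a choice made after its values were seen, the counts were 23 of 29 and 30.8% of all genes. Npas2, a partner of Clock, had 1.9, 1.48 and 1.06 in HFD+AOS against 0.96, 1.24 and 1.11 in HFD+AOS-FMT, where the other groups averaged 4.75 to 6.70. Tef, an output factor, had 94.43, 101.0 and 101.5 against 101.6, 93.62 and 97.14, where the others averaged 48.0 to 68.6. Per2 was the exception within the loop, with 5.28, 4.75 and 6.43 against 7.2, 9.91 and 11.29 (difference -0.68, 95% interval -1.32 to -0.04), both arms above the other groups' 2.58 to 4.34. Control replicate 3 lay among the 6 libraries of both arms for Dbp (90.6), Tef (97.8), Npas2 (1.6) and Per2 (7.53), and just above them for Nr1d2 (30.36) and Arntl (2.71). The 11 other libraries lay outside the arms' range for these 6 genes, with 2.76 to 43.69 for Dbp and 3.39 to 12.54 for Arntl. The labels give no time of collection, and its part in these values was not tested.

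**Figure D5:**
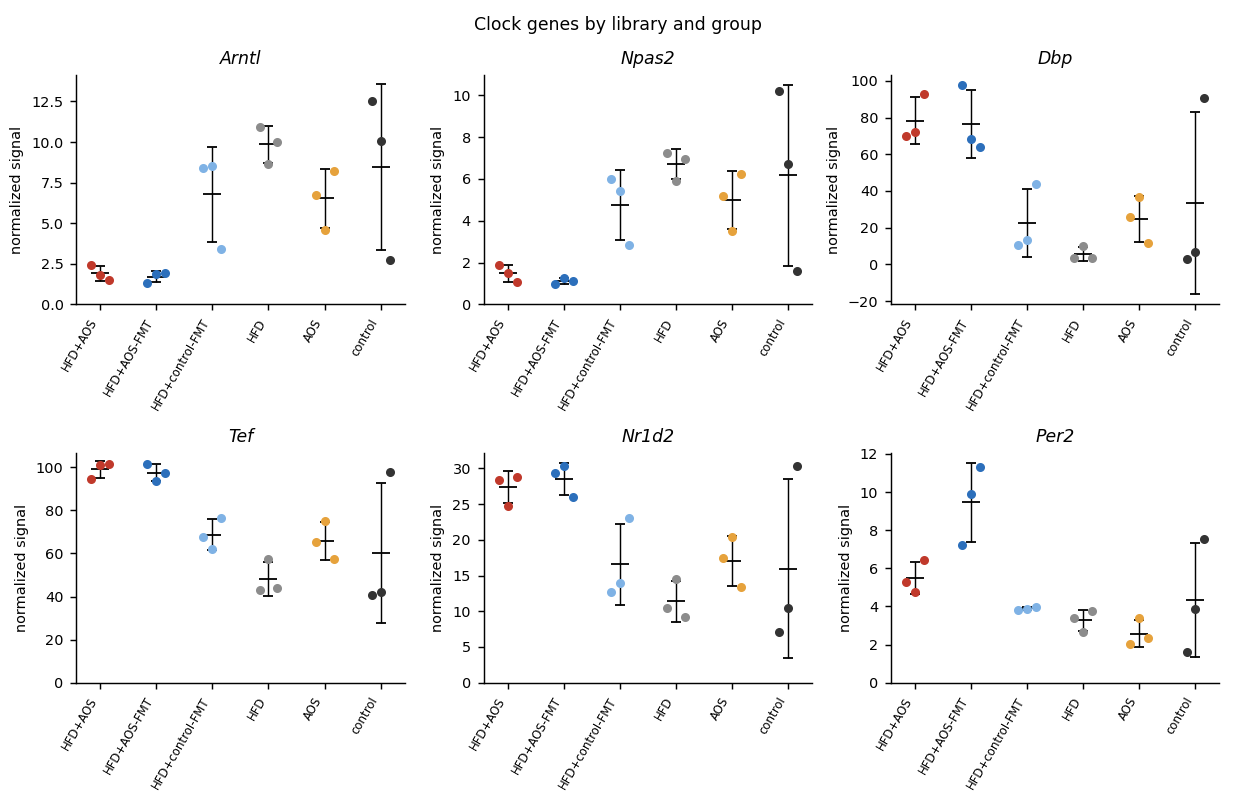
Normalized signal of 6 clock genes in each library (points, replicates 1 to 3 from left to right) with the mean and SD of 3 libraries per group; axes are linear, each with its own range. The means of HFD+AOS and HFD+AOS-FMT lie close to each other and apart from those of the other groups for Arntl, Npas2, Dbp, Tef and Nr1d2, and part from each other for Per2, and control replicate 3 lies among or next to the points of both arms in every panel.

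Hdc, which makes histamine from histidine, had the most negative difference of all genes and was chosen after its values were seen. It had 1.29, 1.13 and 1.78 in HFD+AOS against 71.9, 68.69 and 8.98 in HFD+AOS-FMT (difference -3.96, 95% interval -7.08 to -0.84, limma adjusted p = 0.735). The groups did not overlap, but the gene was high in single libraries elsewhere, with 0.82, 0.66 and 159.99 in HFD and 80.15, 2.97 and 68.54 in control. It stayed at or below 1.38 in all libraries of HFD+control-FMT and AOS. The values within HFD and within control thus span as wide a range as the difference between the arms.

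Interferon stimulated genes leaned higher in HFD+AOS, and did not without HFD+AOS replicate 1. Of 18 tested, 16 had positive differences (4810 of 12031 over all genes), with a median of 0.17. At an unadjusted p under 0.05 1, Xaf1, was higher (1.66% of all genes). It had 6.9, 2.55 and 7.06 in HFD+AOS against 2.23, 2.15 and 2.79 in HFD+AOS-FMT. Without HFD+AOS replicate 1, 7 of 18 had positive differences and the median was -0.07. No other library was left out for this list, and Xaf1 was about as high in replicate 3 as in replicate 1. Of the macrophage and complement (15 tested), lymphocyte (7), MHC class II (7) and inflammatory cytokine genes (12), 1 was called at an unadjusted p under 0.05 (6.06% of all genes), the cytotoxic granule gene Nkg7 (0.50).

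Markers of other cells and tissues that a kidney sample can carry differed between the arms in a few lists. Red blood cell genes summed to 1703 to 3426 in HFD+AOS and 3528 to 4850 in HFD+AOS-FMT. Of 8 tested, 2 were lower at an unadjusted p under 0.05 (4.4% of all genes), Hba-a1 and Alas2. Hba-a1 had 2256.1, 2923.59 and 1376.42 against 3105.83, 4468.37 and 4299.07. After quantile normalization 1 of the 8 was lower (3.1% of all genes) and after upper quartile scaling 0 were (3.66%). Urothelium genes summed to 33.5 to 46.8 against 51.9 to 81.9, with 7 of 7 negative (6 after either other scaling) and 0 called, and smooth muscle and mesangium genes to 32.6 to 35.5 against 38.8 to 51.7, with 8 of 9 negative (7 after quantile normalization) and 0 called. Of the germ cell list, 8 of 15 genes, Prm1 among them, were listed at 0 in all 6 libraries, and Smcp had 11.68, 16.26 and 15.45 against 22.94, 25.11 and 26.96 (-0.76). Of the adrenal list, Cyp11b2 and Th were listed at 0 in all 6. Fat genes overlapped, with sums of 287 to 707 against 403 to 769. The part of tissue makeup in the results above was not tested.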

How the data were processed

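Kidney RNA was sequenced in 18 libraries, 3 in each of 6 groups. Per the submitters' processing notes, Bowtie 0.12.2 and mm10 were used. How reads were counted, annotated and normalized is not given in the sources used here. A table of normalized signal, with a column per library and no stated unit, is what the authors deposited. Its columns sum to 637970 to 721667. They were matched to samples by their titles. Of 19545 entries, 26 symbols that a spreadsheet had turned into dates and the lower of 2 entries of Plin2 were left out. Coordinates are from GENCODE M21, which held 97.3% of symbols. Without the number of reads, counting error cannot be given. Low values of 37 genes came in whole steps (tolerance 0.15), which gave the relative depths, under a rule settled after a first output was seen.

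The log2(signal + 1) values of genes with a signal of at least 1 in 3 libraries were fitted in limma 3.58.1 (R 4.3.3), with 6 groups, 12 residual degrees of freedom, trend and robust estimation, two-sided tests and Benjamini-Hochberg adjustment over all genes. The design had been written for normalized values of a known unit and was kept for the signal. The fit was tested on simulated data. The members and the 44 gene lists were chosen with earlier results of these data known. Because fewer than 10 genes passed, the 24 with the smallest p were named, with up to 4 members per list at an unadjusted p under 0.05 and all clock genes. Some genes that this rule selects are left out of the text and plots, though counts include them. Any other gene is said to be chosen after its values were seen. The 18 alternatives changed the pseudocount, filter, scaling, libraries, weights, moderation or replicate block.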

Additional observations from a re-analysis of the deposited data

How the results depend on the processing

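The count of genes past an adjusted p of 0.05 was 0 with all 18 libraries and in 16 of 18 alternatives, among them leaving out each of the 6 libraries in turn (0 to 0). It was 2 with the 6 libraries alone (Ppp1ccb among them) and 1 with a replicate block (Ppp1ccb). Same-numbered libraries deviated from their group means with correlations of 0.085, -0.146 and -0.071, and differently numbered ones with -0.119 to 0.164. Deviations within a group of 3 are tied to each other, so these values cannot decide whether the numbers pair the libraries. The 729 genes at an unadjusted p under 0.05 were 709 under the block, 1370 without control replicate 3, 1342 without the control and HFD groups and 1438 with array weights. The range over leaving out single libraries was 419 to 810, with the lowest without HFD+AOS replicate 1. The cause was not tested. Of 1864 values of 104 named genes, 27 had the other sign, all of clock genes close to 0. Clock, Ciart and Cry2 had 0.055, 0.024 and 0.052 after quantile normalization and 0.023, 0.0072 and 0.023 after upper quartile scaling, and Clock and Ciart 0.052 and 0.065 with array weights. Leaving out single libraries gave -0.020 to 0.21 for Arntl, -0.15 to 0.17 for Ciart, -0.12 to 0.0064 for Nr1d2, -0.038 to 0.020 for Cry2, -0.17 to 0.0096 for Bhlhe40, -0.073 to 0.078 for Clock, -0.0079 to 0.14 for Klf15, -0.084 to 0.23 for Dbp and -0.0059 to 0.056 for Tef. The unknown number of reads limits genes with a low signal most.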

Other observations

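Osmolyte genes protect cells of the inner medulla from salt. Slc5a3, the inositol carrier of that group, had 3.46, 4.39 and 7.66 in HFD+AOS against 7.22, 16.62 and 10.04 in HFD+AOS-FMT (difference -0.98). It was the only one of 10 tested osmolyte genes at a limma unadjusted p under 0.05 (6.06% of all genes). In glycolysis and gluconeogenesis, Pfkp and Pfkl, subunits of phosphofructokinase, had differences of -0.52 and -0.38, while Pcx, which feeds pyruvate into glucose synthesis, had 175.1, 160.4 and 163.4 against 128.6, 143.7 and 153.2 (0.23). In drug metabolism, Cyp2d26 had 54.52, 41.64 and 63.1 against 37.07, 33.63 and 30.19 (0.63). None of these genes passed after adjustment (limma adjusted p 0.731 to 0.825).

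Nat8f1, an acetyltransferase of the kidney, had 362.4, 339.0 and 454.2 in HFD+AOS against 313.8, 320.1 and 302.7 in HFD+AOS-FMT (0.29), and both groups were above or among the other groups' means of 270 to 324. Hmx2, a transcription factor on the intercalated cell list, had 3.69, 3.42 and 4.4 against 2.8, 2.42 and 3.15 (0.35). Ndrg1, a gene induced by low oxygen and chosen after its values were seen, had 1207, 973.5 and 810.4 against 720.5, 799.9 and 992.8 (0.24, overlapping), with both arms under the other groups' means of 1391 to 1735. At an unadjusted p under 0.05 (6.06% of all genes), 0 of 20 oxidative phosphorylation, 0 of 18 immediate early, 0 of 11 podocyte, 0 of 12 endothelium, 0 of 21 extracellular matrix, 0 of 13 tubule injury and 0 of 11 proliferation genes were called. With limma, 0 of them passed after adjustment.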
